A study of Mus musculus with 15 samples.

Results

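The 53 genes described here are interferon-stimulated genes, taken from the deposited count table by gene symbol. All 53 symbols were among the 25639 of the table, and all 53 were among the 12401 genes that passed a filter on low counts. The rule is a list of symbols and sets no threshold on a measured value, but the symbols were chosen with earlier results of these data known. The cells were RAW264.7, a mouse macrophage-like line from a tumour induced by Abelson leukaemia virus, given as wild type in the labels. They were left untreated or were given LCCL, named in the series title as the core motif of a potential peptide drug. The 15 libraries formed 5 groups of 3, which were the untreated cells and both LCCL amounts (1 µg and 10 µg), each at 6 h and at 24 h. Doses are given as amounts with no volume, and the labels name neither a vehicle group nor a harvest time for the untreated cells. The labels do not say whether the 3 libraries of a group came from separate cultures, so the p-values rest on a spread among libraries that may be only technical. The total count per library was between 19085148 and 22434642.

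Type I interferons bind a receptor made of IFNAR1 and IFNAR2, and the kinases JAK1 and TYK2 then phosphorylate transcription factors, STAT2 among them. STAT2 and IRF9 are parts of the factor ISGF3, which binds the interferon-stimulated response element (ISRE) in the promoters of interferon-stimulated genes. Macrophages keep a basal level of many of these transcripts without infection, and the products degrade viral RNA, block its translation, hold virions at the membrane or, as with USP18, damp the receptor itself.

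The promoters of 5 members are printed because they hold the ISRE core next to genes that moved in opposite ways: Ifit1, Isg15 and Rsad2 had less transcript after 24 h, and Oas1g and Ifi203 had more. The core searched was TTTCNNTTTC, which reads GAAANNGAAA on the other strand, with overlapping matches counted separately. It was looked for in the RefSeq promoter windows of the assembly GRCm38.p6, which run from 250 bases before a start site to 50 bases after it. The counts themselves were made on GRCm39 per the submitters' processing notes, so these positions belong to the RefSeq table only. Each line gives 150 bases, 5′ to 3′ on the gene's strand and ending 20 bases after the start site, with the ISRE core in capitals. Ifit1 lies at chr19:34640759-34640908 on the plus strand, Isg15 at chr4:156200799-156200948 on the minus strand, and Rsad2 at chr12:26456433-26456582 on the minus strand. Oas1g lies at chr5:120887594-120887743 on the minus strand and Ifi203 at chr1:173942473-173942622 on the minus strand. The last bases of the Ifi203 window were not found near the start of any GENCODE transcript of that gene. Start sites themselves were not compared. Where a gene had more than 1 window, the printed one is that with the most ISRE cores.
Ifit1: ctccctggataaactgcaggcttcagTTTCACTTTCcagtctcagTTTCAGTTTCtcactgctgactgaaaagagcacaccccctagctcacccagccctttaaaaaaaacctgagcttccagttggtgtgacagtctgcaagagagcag
Isg15: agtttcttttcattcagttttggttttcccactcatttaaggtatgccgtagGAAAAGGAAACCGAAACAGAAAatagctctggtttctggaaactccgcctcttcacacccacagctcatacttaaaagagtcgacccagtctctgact
Rsad2: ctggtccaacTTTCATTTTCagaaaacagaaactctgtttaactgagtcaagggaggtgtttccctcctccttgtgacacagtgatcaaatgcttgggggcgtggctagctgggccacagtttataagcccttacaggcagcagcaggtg
Oas1g: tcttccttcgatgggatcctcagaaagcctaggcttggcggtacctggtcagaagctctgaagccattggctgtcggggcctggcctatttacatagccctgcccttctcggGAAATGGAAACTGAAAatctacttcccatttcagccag
Ifi203: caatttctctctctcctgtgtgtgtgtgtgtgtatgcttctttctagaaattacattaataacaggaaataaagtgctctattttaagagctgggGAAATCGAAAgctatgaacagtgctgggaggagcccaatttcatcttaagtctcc
Ifit1 has 2 separate cores, Isg15 has 3 that overlap, Oas1g has 2 that overlap, and Rsad2 and Ifi203 have 1 each. RefSeq windows were found for 41 of the 53 members, 11 of which had more than 1 window. The core was in a window of 18 of the 41 (43.9%), against 3.99% of the 27025 genes with a window of the same length. The gamma-activated site TTCNNNGAA, the same on both strands and free to overlap the ISRE core, was in 9 of the 41 (22%), against 9.55% of all genes. A match describes letters in a window and does not show binding.

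Levels are given as CPM, the usual depth-scaled count, which divides a count by the library's total and is scaled between libraries with edgeR's TMM factors and listed in the order of replicates 1 to 3. CPM is not corrected for transcript length, so a level is compared between libraries of the same gene and never between genes. Differences are log2 fold changes ± SE from edgeR's quasi-likelihood test, fitted over all 15 libraries and 12401 genes. The test gives no SE, so it was derived as the absolute log2 change over the square root of the test's F statistic. A gene was called, and is said to have risen or fallen, where its Benjamini-Hochberg adjusted p was under 0.05. In bulk RNA, fewer cells with a transcript and less transcript per cell cannot be told apart.

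About as many interferon-stimulated genes rose as were not called 6 h after 10 µg LCCL, and most fell by 24 h at either dose. At 10 µg 6 h, 27 of 53 members rose, 26 were not called and 0 fell, while 4.09% of all genes tested were called higher and 1.86% lower. All 39 members with an unadjusted p under 0.05 in that comparison had positive changes, and DESeq2 and limma-voom also called none lower. An unadjusted p under 0.05 was found there in 2288 of all genes, a count not split by direction. The rises were small: 25 of the 27 were under 0.5 on the log2 scale, and none reached 2-fold. The median change over the 53 members was 0.23, against 0.00 over all genes.

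At 1 µg 6 h, edgeR called 0 members higher and 0 lower, as it did over all genes (0% higher and 0% lower). Slfn2 and Mx1 were the 2 members with an unadjusted p under 0.05, and 337 of all genes had one. DESeq2 and limma-voom called 0 members as well. The median change was 0.02, and 33 of 53 members had a positive sign.

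After 24 h the balance was the other way. At 1 µg, 40 members fell and 3 rose, where 31% of all genes were called lower and 30.8% higher. At 10 µg, 41 fell and 4 rose, where 34.9% of all genes were called lower and 35.4% higher. Changes of at least 2-fold downward were found in 6 members at 1 µg and 13 at 10 µg, and none rose 2-fold at either dose. Changes of this size were not counted over all genes, so these numbers have no share beside them. The median change over members was -0.36 at 1 µg and -0.51 at 10 µg, against 0.01 over all genes in both comparisons. The same 38 members fell at both doses, and 22 of the 27 that rose at 10 µg 6 h were below the untreated level at 10 µg 24 h. These comparisons share the 3 untreated libraries, so their overlaps are given as counts only, and they were not counted over all genes. Summed over the 53 members, the level was 5257, 5708 and 5925 CPM in the untreated libraries. It was 5607 to 5787 at 1 µg 6 h, 6422 to 6532 at 10 µg 6 h, 4704 to 4866 at 1 µg 24 h and 4413 to 4709 at 10 µg 24 h, so that the 10 µg 6 h libraries were above and all 24 h libraries below the untreated ones.

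**Figure D1:**
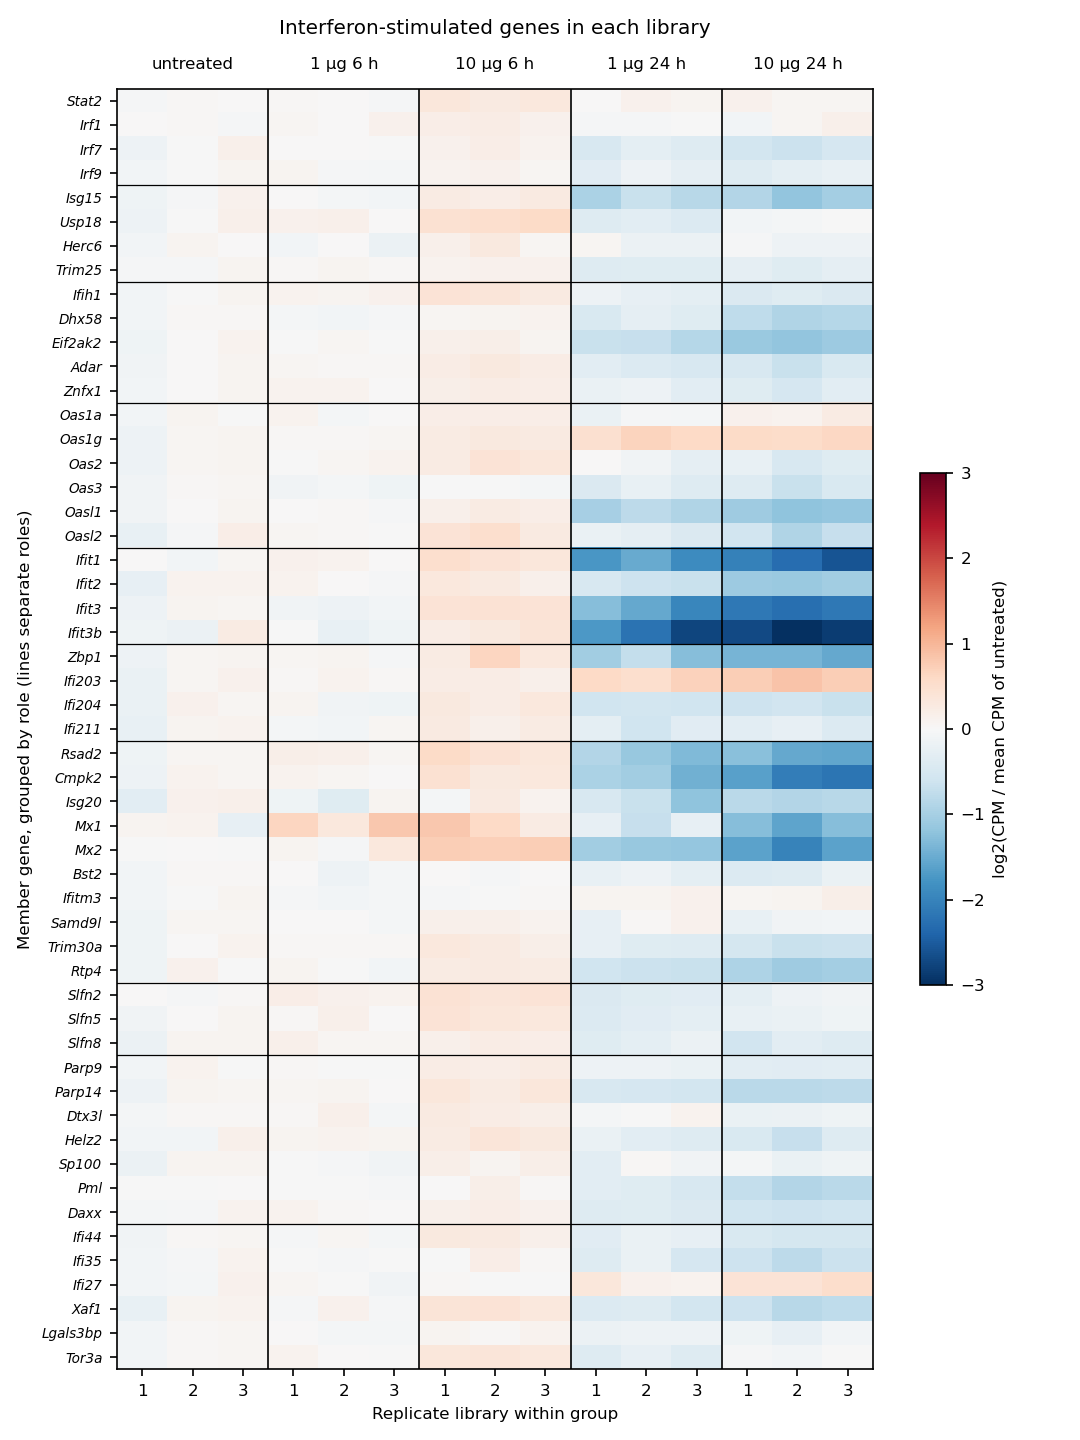
Level of each of the 53 members (rows, grouped by role, with lines between roles) in each of the 15 libraries (columns, 3 per group), as log2 of CPM over the mean CPM of the untreated libraries. The 10 µg 6 h columns are pale red in most rows and the 24 h columns blue in most rows, deepest in the IFIT rows, while Oas1g, Ifi203 and Ifi27 are red at 24 h.

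The number of rises at 10 µg 6 h depended on single libraries. Without untreated replicate 1, which had the lowest summed level of its group, 12 of the 27 members were called, and without 10 µg 6 h replicate 2, 17 were called. Leaving out 10 µg 6 h replicate 1 or 3 left 19 or 22, and untreated replicate 2 or 3 left 23 or 29. Calls were also lost over all genes, where 507 were higher and 231 lower with all libraries. With any 1 of the compared libraries left out, 394 to 466 of all genes were called. The 12 called in every alternative were Ifih1, Ifit1, Mx2, Oas1g, Parp14, Rsad2, Slfn2, Slfn5, Stat2, Tor3a, Usp18 and Xaf1. The other 15 lost their call in at least 1 alternative, every one of them without untreated replicate 1. These 15 were Adar, Dtx3l, Helz2, Ifi204, Ifi44, Ifit2, Ifit3, Oas1a, Oas2, Oasl1, Oasl2, Parp9, Rtp4, Trim30a and Znfx1. At 24 h the number called stayed between 41 and 44 at 1 µg and between 44 and 46 at 10 µg when any one library was left out.

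Most members also fell between the times at each dose. These comparisons use the same 24 h libraries as those against untreated cells, so they are not separate support. The untreated cells have no stated harvest time, so LCCL and time in culture cannot be told apart in either set of comparisons. From 6 h to 24 h at 1 µg, 41 members fell and 4 rose, where 30.5% of all genes were called lower and 30.3% higher. At 10 µg, 47 fell and 4 rose, where 35.2% of all genes were called lower and 34% higher. The 4 that rose at both doses were Oas1g, Ifi203, Ifi27 and Ifitm3. The median change was -0.37 at 1 µg and -0.74 at 10 µg, and 16 members fell at least 2-fold at 10 µg, a size not counted over all genes. The Ifitm3 rise of 0.11 ± 0.05 at 10 µg (adjusted p = 0.0455, edgeR) lost its call without 10 µg 6 h replicate 1 or 2 or without 10 µg 24 h replicate 3, with adjusted p up to 0.216. At 1 µg the Ifi27 rise of 0.21 ± 0.06 lost its call without 1 µg 6 h replicate 3 or 1 µg 24 h replicate 1, with adjusted p up to 0.0687.

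**Figure D2:**
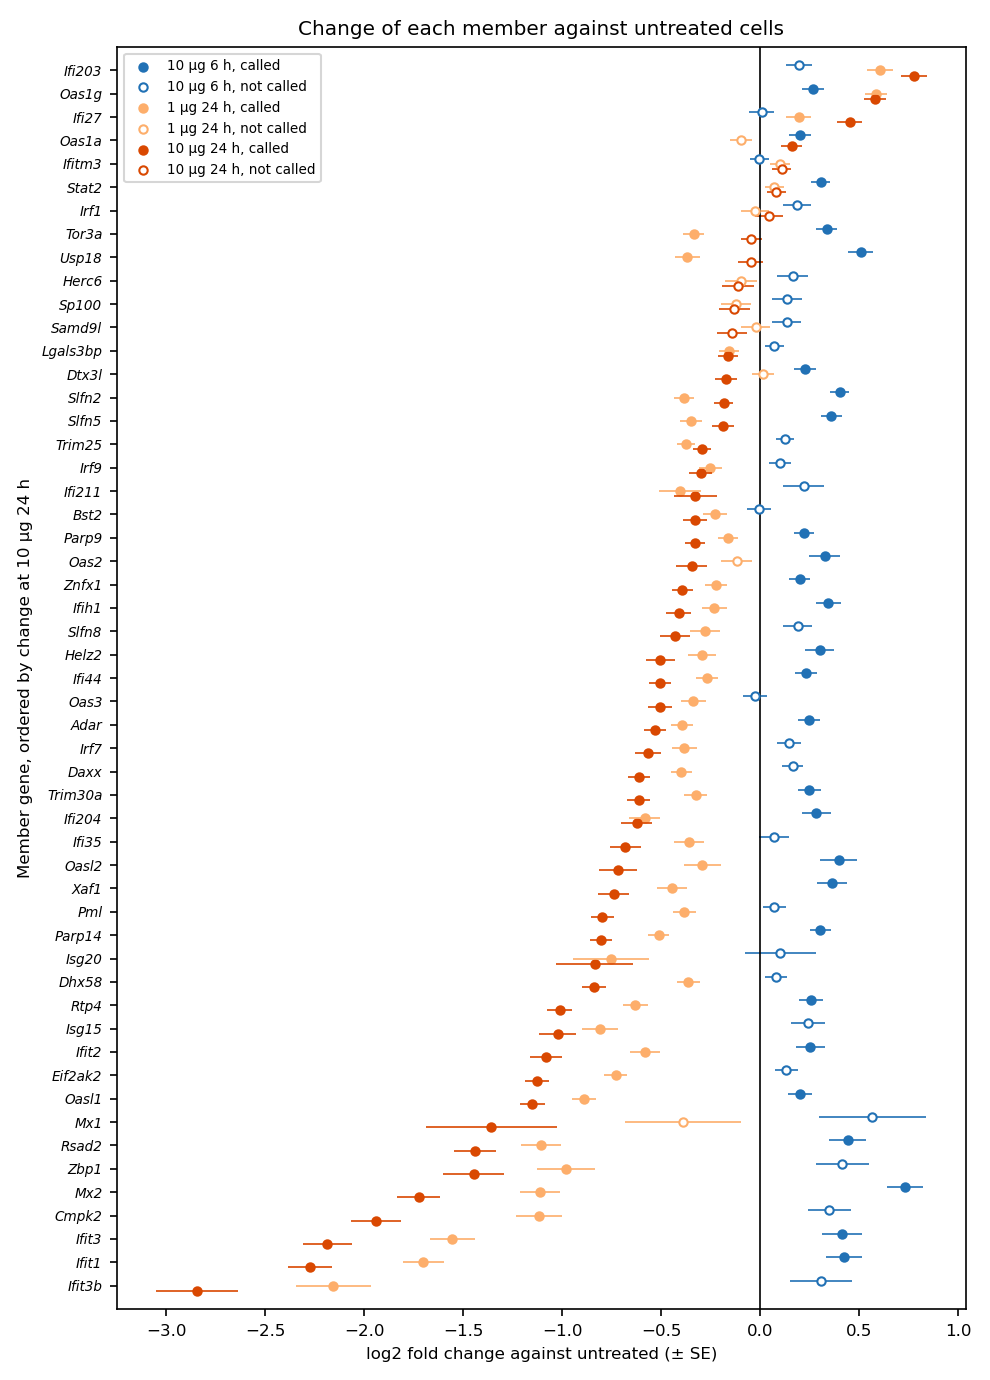
Log2 fold change ± SE against untreated cells for each member, ordered by its change at 10 µg 24 h. Blue points (10 µg 6 h) lie right of 0 for 50 members and just left of it, down to -0.02, for Oas3, Bst2 and Ifitm3, and orange points (light, 1 µg 24 h, and dark, 10 µg 24 h) run down to -2.16 and -2.85 for Ifit3b. Filled points were called and open points were not.

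The interferons themselves were hardly detected. Of 21 ligand genes in the table, 19 had no count in any library. Ifnb1, the interferon beta gene, had 1 count over the 3 untreated libraries, 3 at 1 µg 6 h, 5 at 10 µg 6 h, 3 at 1 µg 24 h and 0 at 10 µg 24 h. No library held more than 3 counts of it, which is 0.130 to 0.160 CPM at these depths, and no ligand could be tested. A difference in Ifnb1 within this range of counts was not detectable at this depth.

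Of 5 tested receptor chains for interferons, 0 rose and 2 fell at 10 µg 6 h (4.09% and 1.86% of all genes), and 3 rose and 1 fell at 10 µg 24 h (35.4% and 34.9% of all genes). Ifnar1, the first chain of the type I receptor, was at 120.04, 118 and 117 CPM in untreated cells, 106, 111 and 105 at 10 µg 6 h and 110.2, 116 and 127 at 10 µg 24 h. It was not called against untreated in any group, with -0.14 ± 0.05 at 10 µg 6 h and -0.01 ± 0.05 at 10 µg 24 h. Ifnar2, the other chain, was at 94.7, 89.8 and 91.9 CPM in untreated cells, 78.9, 78.1 and 80.6 at 10 µg 6 h and 103, 108 and 107 at 10 µg 24 h. Its untreated libraries were above all those at 10 µg 6 h and below all those at 10 µg 24 h. Ifnar2 fell by 0.22 ± 0.06 at 10 µg 6 h (edgeR adjusted p = 0.0353) and rose by 0.20 ± 0.06 at 10 µg 24 h (adjusted p = 0.00475). Ifngr1, the ligand-binding chain of the interferon gamma receptor, fell by 0.24 ± 0.06 at 10 µg 6 h and rose by 0.56 ± 0.06 and 0.19 ± 0.06 at 24 h with 1 µg and 10 µg. The Ifnar2 call at 6 h was lost without any one of the compared libraries (adjusted p up to 0.146). That of Ifngr1 was lost at 6 h without untreated replicate 2 or 3 or 10 µg 6 h replicate 1 or 2 (up to 0.137), and at 10 µg 24 h without untreated replicate 1 (0.0750).

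Of 4 kinases and transducers tested, 0 were called at 10 µg 6 h by edgeR, and 2 rose and 0 fell at 10 µg 24 h, where 35.4% of all genes rose and 34.9% fell. Tyk2 was at 79.2, 79.3 and 77.5 CPM in the untreated libraries, 76.8, 75.9 and 75.1 at 1 µg 6 h and 72.2, 84.2 and 81.8 at 10 µg 6 h. Tyk2 at 24 h was at 100.5, 102 and 101 CPM with 1 µg and 104, 107 and 116 with 10 µg. All 24 h libraries were above all untreated ones. Tyk2 rose by 0.36 ± 0.05 at 1 µg 24 h and 0.47 ± 0.05 at 10 µg 24 h, and Jak2, a kinase of the interferon gamma receptor, rose by 0.30 ± 0.07 at 10 µg 24 h. Jak1 fell by 0.15 ± 0.05 at 1 µg 24 h, a call lost without 1 µg 24 h replicate 1 (edgeR adjusted p = 0.0726), and was at 0.03 ± 0.05 at 10 µg 24 h.

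Of the 4 members that are transcription factors, 1 rose at 10 µg 6 h (4.09% of all genes) and 2 fell at 24 h at each dose (31% of all genes at 1 µg and 34.9% at 10 µg). Stat2 was at 75.97, 80.6 and 78.8 CPM in the untreated libraries, 80.03, 78.8 and 76.9 at 1 µg 6 h and 99.1, 94.6 and 97.4 at 10 µg 6 h. Stat2 at 24 h was at 79.2, 85.4 and 82.8 CPM with 1 µg and 85.8, 81.8 and 81.6 with 10 µg. The 3 libraries at 10 µg 6 h were above every other library. Stat2 rose by 0.31 ± 0.05 at 10 µg 6 h (edgeR adjusted p = 1.58e-04) and was not called against untreated at 24 h (0.07 ± 0.05 and 0.08 ± 0.05 at 1 µg and 10 µg). Irf7, the factor that amplifies interferon production, was at 86.8, 94.9 and 107 CPM in the untreated libraries, 97.9, 97.5 and 95.2 at 1 µg 6 h and 105, 111 and 104 at 10 µg 6 h. Irf7 at 24 h was at 68.95, 79.2 and 73.6 CPM with 1 µg and 65.4, 61.9 and 67.8 with 10 µg. All 24 h libraries were below the untreated ones, whereas the 10 µg 6 h and untreated libraries overlapped. Irf7 changed by -0.38 ± 0.06 and -0.57 ± 0.06 at 24 h with 1 µg and 10 µg (adjusted p = 1.35e-05 and 2.43e-08). Irf9, the DNA-binding subunit of ISGF3, was at 79.9, 83.5 and 89.4 CPM in the untreated libraries, 88.8, 82.7 and 80.9 at 1 µg 6 h and 91.3, 91.9 and 87.8 at 10 µg 6 h. Irf9 at 24 h was at 67.1, 75.5 and 69.9 CPM with 1 µg and 64.8, 68.2 and 72.2 with 10 µg. Every 24 h library was below every untreated one, and Irf9 changed by -0.25 ± 0.06 and -0.30 ± 0.06. Irf1, a factor that interferon gamma induces strongly, was not called in any comparison with untreated cells (0.19 ± 0.07, -0.03 ± 0.07 and 0.04 ± 0.07 at 10 µg 6 h, 1 µg 24 h and 10 µg 24 h). In GENCODE vM21, exons of Irf9 share 123 bases with Rnf31 on the same strand, and reads there could be counted for either gene.

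**Figure D3:**
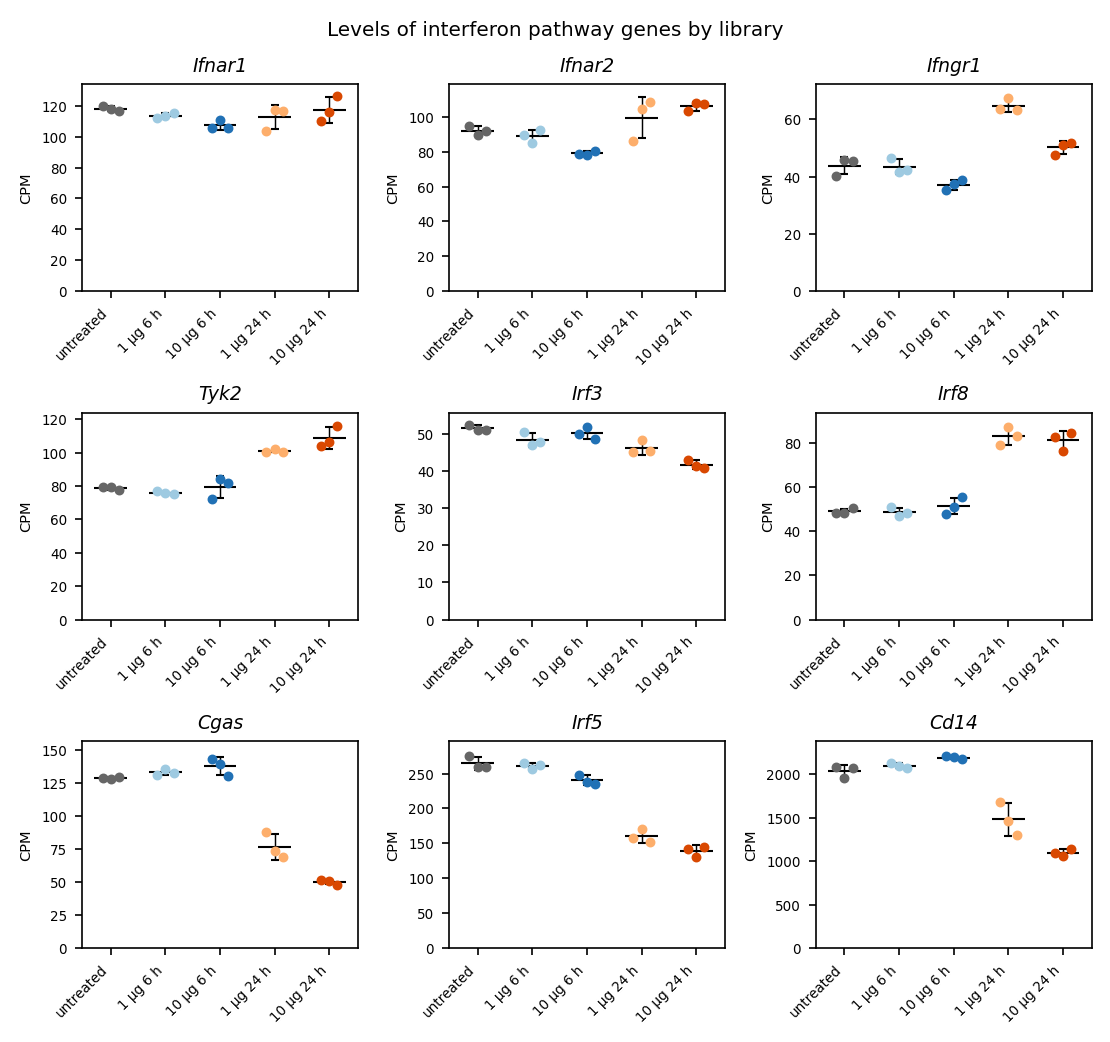
CPM of 9 interferon pathway genes in each library, with points for libraries, a horizontal line for the group mean and bars for ± SD over 3 libraries. Irf3, Irf5, Cgas and Cd14 are lowest at 10 µg 24 h, Irf8 is highest at 24 h, and Ifnar1 stays between 104 and 127 CPM.

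Of the 4 members in ISG15 conjugation and its removal, Usp18 and Isg15 took different courses. Isg15, the ubiquitin-like modifier whose promoter is printed above, was at 19.03, 20.4 and 22.9 CPM in the untreated libraries, 20.9, 20.1 and 19.7 at 1 µg 6 h and 24.7, 23.9 and 25.01 at 10 µg 6 h. Isg15 at 24 h was at 10.8, 12.998 and 11.7 CPM with 1 µg and 11.4, 9.08 and 10.2 with 10 µg. The 24 h libraries were all below the untreated ones. Isg15 changed by -0.81 ± 0.09 at 1 µg 24 h and -1.02 ± 0.09 at 10 µg 24 h (edgeR adjusted p = 3.58e-08 and 4.21e-10), with 0.24 ± 0.09 at 10 µg 6 h, which was not called. Usp18, the protease that removes ISG15 and also blocks signalling at IFNAR2, was at 56.7, 62.6 and 69.8 CPM in the untreated libraries, 69.3, 70.1 and 63.1 at 1 µg 6 h and 86.02, 89.3 and 93.6 at 10 µg 6 h. Usp18 at 24 h was at 48.5, 50.3 and 47.8 CPM with 1 µg and 60.03, 60.2 and 62.9 with 10 µg. Its 10 µg 6 h libraries were above all others, its 1 µg 24 h libraries were below the untreated ones, and its 10 µg 24 h libraries overlapped them. Usp18 rose by 0.51 ± 0.06 at 10 µg 6 h (adjusted p = 6.02e-06) and fell by 0.37 ± 0.06 at 1 µg 24 h (adjusted p = 1.98e-05), and stood at -0.05 ± 0.06 at 10 µg 24 h. Trim25, a ubiquitin ligase of the RIG-I pathway, was at 427, 430.4 and 463 CPM in untreated cells, 334, 342 and 343 at 1 µg 24 h and 368, 345 and 364 at 10 µg 24 h. Its untreated libraries were above all 24 h ones, and it changed by -0.37 ± 0.05 and -0.29 ± 0.05. Herc6, the ligase that attaches ISG15 in mice, was called in no comparison with untreated cells.

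All 5 RNA sensors and RNA-binding restriction factors fell at 24 h at both doses (31% of all genes at 1 µg and 34.9% at 10 µg). Eif2ak2 (protein kinase R, which stops translation when it binds double-stranded RNA) was at 156, 174 and 184 CPM in the untreated libraries, 169.6, 179 and 170.4 at 1 µg 6 h and 190.3, 192 and 181 at 10 µg 6 h. Eif2ak2 at 24 h was at 108, 107 and 94.8 CPM with 1 µg and 78.6, 75.95 and 80.7 with 10 µg. The untreated, 1 µg 24 h and 10 µg 24 h libraries formed 3 ranges in falling order with no overlap. Eif2ak2 changed by -0.73 ± 0.06 and -1.13 ± 0.06 (edgeR adjusted p = 7.54e-11 and 1.03e-14), and the difference of 10 µg from 1 µg at 24 h was -0.40 ± 0.06. Dhx58 (LGP2, a regulator of RIG-I-like sensing) was at 52.9, 57.1 and 57.6 CPM in the untreated libraries, 53.8, 52.9 and 54.5 at 1 µg 6 h and 58.4, 58.9 and 59.97 at 10 µg 6 h. Dhx58 at 24 h was at 40.4, 46.3 and 43.8 CPM with 1 µg and 33.1, 29.8 and 30.8 with 10 µg. These 24 h libraries too lay below the untreated ones, and the 10 µg ones below the 1 µg ones. Dhx58 changed by -0.36 ± 0.06 and -0.84 ± 0.06, and the dose difference at 24 h was -0.48 ± 0.06 (adjusted p = 8.78e-07). Adar, which edits adenosine to inosine in double-stranded RNA, rose by 0.25 ± 0.06 at 10 µg 6 h and fell by 0.53 ± 0.06 at 10 µg 24 h. Ifih1, the sensor MDA5, rose by 0.35 ± 0.06 at 10 µg 6 h (adjusted p = 7.79e-04) and fell by 0.41 ± 0.06 at 10 µg 24 h. Znfx1, an RNA helicase at mitochondria that binds viral RNA, rose by 0.20 ± 0.05 and then fell by 0.39 ± 0.05. The 10 µg 6 h call of Adar was lost when either untreated replicate 1 or 10 µg 6 h replicate 2 was left out, and that of Znfx1 without any compared library but untreated replicate 3, with adjusted p up to 0.0828 and 0.169.

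The enzymes of the OAS family make the 2′-5′ oligoadenylates that activate RNase L. At 10 µg 24 h, 2 of the 6 family members rose and 4 fell (35.4% and 34.9% of all genes). The share that rose was near that over all genes. Oas1g was at 104, 119.8 and 121 CPM in the untreated libraries, 117, 118 and 119 at 1 µg 6 h and 136, 139.7 and 139 at 10 µg 6 h. Oas1g at 24 h was at 161, 183 and 172 CPM with 1 µg and 171, 168 and 176 with 10 µg. The groups rose in steps, with the 10 µg 6 h libraries above the untreated ones and all 24 h libraries above those. Oas1g rose by 0.27 ± 0.06 at 10 µg 6 h, 0.58 ± 0.05 at 1 µg 24 h and 0.58 ± 0.05 at 10 µg 24 h (edgeR adjusted p = 0.00326, 1.33e-09 and 6.92e-10). Oas1a, its near neighbour in sequence, rose by 0.20 ± 0.06 at 10 µg 6 h and 0.16 ± 0.06 at 10 µg 24 h. The Oas1a call at 6 h was lost without any compared library but untreated replicate 2 (adjusted p up to 0.169), and that at 24 h without untreated replicate 1 or 10 µg 24 h replicate 3 (up to 0.0987).

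The other OAS members ran the opposite way at 24 h. Oasl1, which lacks synthetase activity and represses Irf7 translation, was at 61.3, 67.1 and 69.95 CPM in the untreated libraries, 66.3, 67.6 and 64.96 at 1 µg 6 h and 72.99, 78.97 and 76.2 at 10 µg 6 h. Oasl1 at 24 h was at 33.3, 38.5 and 35.1 CPM with 1 µg and 31.4, 28.4 and 29.4 with 10 µg. Its untreated, 1 µg 24 h and 10 µg 24 h ranges did not overlap. Oasl1 changed by -0.89 ± 0.06 and -1.15 ± 0.06 (edgeR adjusted p = 7.66e-12 and 2.52e-14). Oasl2 was at 27.1, 30.8 and 36.4 CPM in the untreated libraries, 32.7, 32.2 and 30.9 at 1 µg 6 h and 41.7, 44.4 and 38.05 at 10 µg 6 h. Oasl2 at 24 h was at 27.6, 25.9 and 23.4 CPM with 1 µg and 20.98, 16.8 and 19.5 with 10 µg. The 10 µg libraries were above untreated at 6 h and below at 24 h, while those at 1 µg 24 h overlapped untreated. Oasl2 rose by 0.40 ± 0.09 at 10 µg 6 h, changed by -0.29 ± 0.09 at 1 µg 24 h and -0.72 ± 0.10 at 10 µg 24 h. Its 1 µg 24 h call was lost without replicate 3 of either group (adjusted p up to 0.109), and its 6 h call without untreated replicate 1 or 2 or 10 µg 6 h replicate 2 (up to 0.0748). Oas2 rose by 0.33 ± 0.08 at 10 µg 6 h and fell by 0.35 ± 0.08 at 10 µg 24 h, and Oas3 changed by -0.34 ± 0.06 and -0.51 ± 0.06 at 24 h with 1 µg and 10 µg. The Oas2 call at 6 h was lost without untreated replicate 1 or replicate 2 or 3 of 10 µg 6 h (up to 0.0894). Reads of Oas1a, Oas1g and their close paralogs could have been split between them by a counting method that the labels do not describe.

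The IFIT family, which binds viral RNA and blocks its translation, held the 3 lowest log2 changes of the list at 10 µg 24 h, in Ifit3b, Ifit1 and Ifit3. Ifit1 was at 24.1, 22.9 and 25.3 CPM in the untreated libraries, 26.5, 26.1 and 24.1 at 1 µg 6 h and 34.3, 32.2 and 30.4 at 10 µg 6 h. Ifit1 at 24 h was at 7.1998, 8.42 and 6.5001 CPM with 1 µg and 5.94, 4.94 and 4.03 with 10 µg. The order was 10 µg 6 h highest, untreated, 1 µg 24 h and 10 µg 24 h lowest, with no overlap between these groups. Ifit1 rose by 0.42 ± 0.09 at 10 µg 6 h (edgeR adjusted p = 0.00465) and changed by -1.70 ± 0.10 at 1 µg 24 h and -2.27 ± 0.11 at 10 µg 24 h (adjusted p = 6.40e-13 and 2.54e-15). From 6 h to 24 h at 10 µg Ifit1 fell by 2.70 ± 0.11.

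Ifit3 and Ifit3b, near-identical copies whose reads may have been split by counting, both fell at 24 h, and only Ifit3 was called at 10 µg 6 h; the difference between the 2 genes was not tested. Ifit3 was at 15.9, 18.7 and 18.5 CPM in the untreated libraries, 16.4, 16.01 and 16.7 at 1 µg 6 h and 23.7, 23.7 and 23.4 at 10 µg 6 h. Ifit3 at 24 h was at 7.24, 6.13 and 4.58 CPM with 1 µg and 3.98, 3.68 and 3.98 with 10 µg. Again the 10 µg 6 h libraries were above and the 24 h ones below the untreated range. Ifit3 rose by 0.42 ± 0.10 at 10 µg 6 h (edgeR adjusted p = 0.0125, and up to 0.0936 with untreated replicate 1 or 10 µg 6 h replicate 2 left out). It fell by 2.19 ± 0.12 at 10 µg 24 h. Ifit3b was at 6.05, 5.89 and 7.899 CPM in the untreated libraries, 6.56, 5.65 and 6.03 at 1 µg 6 h and 7.69, 8.12 and 8.69 at 10 µg 6 h. Ifit3b at 24 h was at 1.99, 1.43 and 0.985 CPM with 1 µg and 1.01, 0.807 and 0.923 with 10 µg. The 24 h libraries were all below the untreated ones, and the doses overlapped there. Ifit3b changed by -2.16 ± 0.19 at 1 µg 24 h and -2.85 ± 0.21 at 10 µg 24 h (adjusted p = 4.51e-10 and 5.60e-12), with 0.31 ± 0.16 at 10 µg 6 h, not called. Ifit2 rose by 0.25 ± 0.07 at 10 µg 6 h and fell by 1.08 ± 0.08 at 10 µg 24 h, the first being lost without untreated replicate 1 or 10 µg 6 h replicate 1 or 2 (adjusted p up to 0.286).

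Among the nucleic acid sensors of the DNA branch, Zbp1 and Ifi204 fell at 24 h and Ifi203 rose. Zbp1, a sensor of left-handed nucleic acid that starts necroptosis, was at 6.73, 7.76 and 7.95 CPM in the untreated libraries, 7.84, 7.96 and 7.3001 at 1 µg 6 h and 8.898, 11.7 and 9.37 at 10 µg 6 h. Zbp1 at 24 h was at 3.62, 4.58 and 3.102 CPM with 1 µg and 2.83, 2.82 and 2.57 with 10 µg. Both 24 h groups were below the untreated range, 10 µg lowest. Zbp1 changed by -0.98 ± 0.15 and -1.45 ± 0.15 (edgeR adjusted p = 2.57e-06 and 6.69e-09). Ifi204, a DNA-binding protein of the IFI200 family, was at 27.6, 34.3 and 32.6 CPM in the untreated libraries, 33.4, 29.1 and 28.9 at 1 µg 6 h and 38.8, 37.01 and 39.3 at 10 µg 6 h. Ifi204 at 24 h was at 20.7, 21.6 and 20.8 CPM with 1 µg and 20.4, 21.1 and 19.9 with 10 µg. Its 24 h libraries were below the untreated ones at both doses, with the doses overlapping. Ifi204 changed by -0.58 ± 0.08 and -0.62 ± 0.08 at 1 µg and 10 µg.

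Ifi203, another IFI200 gene, had the highest log2 change of the list at 10 µg 24 h. Ifi203 was at 82.8, 100.2 and 104 CPM in the untreated libraries, 98.3, 103 and 98.3 at 1 µg 6 h and 111, 113 and 106 at 10 µg 6 h. Ifi203 at 24 h was at 145, 137 and 155 CPM with 1 µg and 159.5, 173 and 161 with 10 µg. All 24 h libraries were above every earlier or untreated one. Ifi203 rose by 0.60 ± 0.07 at 1 µg 24 h and 0.78 ± 0.07 at 10 µg 24 h (edgeR adjusted p = 3.87e-08 and 2.80e-10), with 0.20 ± 0.07 at 10 µg 6 h, not called. Its neighbour Mndal, outside the list and from the same family, rose by 0.95 ± 0.06 and 0.91 ± 0.06 at 24 h. Exons of the pair share 37 bases on the same strand in GENCODE vM21, and both are close in sequence to other IFI200 genes, so their separate values are uncertain. Ifi211 changed by -0.41 ± 0.11 and -0.33 ± 0.11 at 24 h.

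Of 10 direct antiviral effectors, 4 rose at 10 µg 6 h, 7 fell at 1 µg 24 h and 8 fell at 10 µg 24 h, against 4.09%, 31% and 34.9% of all genes. Mx2, a dynamin-like GTPase with antiviral activity, was at 16.7, 16.97 and 16.8 CPM in the untreated libraries, 17.9, 16.4 and 21.001 at 1 µg 6 h and 28.2, 27.8 and 27.9 at 10 µg 6 h. Mx2 at 24 h was at 8.22, 7.64 and 7.48 CPM with 1 µg and 5.51, 4.19 and 5.54 with 10 µg. The 10 µg 6 h libraries were above all others, the untreated and 1 µg 6 h libraries overlapped, and the 10 µg 24 h libraries were lowest. Mx2 rose by 0.73 ± 0.09 at 10 µg 6 h, a 1.66-fold rise and the largest among the members there (edgeR adjusted p = 9.45e-06). It changed by -1.11 ± 0.10 at 1 µg 24 h and -1.73 ± 0.11 at 10 µg 24 h (adjusted p = 9.22e-10 and 3.29e-13). Mx1, the nuclear paralog, had 7 to 40 counts per library. It fell by 1.36 ± 0.33 at 10 µg 24 h and stood at 0.57 ± 0.27 at 10 µg 6 h, not called.

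Rsad2 and Cmpk2 are neighbouring genes that make a chain-terminating nucleotide and its precursor. Rsad2 (viperin) was at 21.03, 24.3 and 24.1 CPM in the untreated libraries, 26.4, 25.7 and 24.1 at 1 µg 6 h and 34.3, 31.04 and 29.1 at 10 µg 6 h. Rsad2 at 24 h was at 12.5, 10.5 and 9.21 CPM with 1 µg and 9.68, 8.02 and 7.87 with 10 µg. The 10 µg 6 h range was above the untreated one and both 24 h ranges below it, overlapping each other. Rsad2 rose by 0.44 ± 0.09 at 10 µg 6 h, changed by -1.11 ± 0.10 at 1 µg 24 h and -1.44 ± 0.11 at 10 µg 24 h (edgeR adjusted p = 0.00401, 1.04e-09 and 6.26e-12). Cmpk2 was at 27.5, 32.8 and 31.9 CPM in the untreated libraries, 33.1, 32.1 and 31.2 at 1 µg 6 h and 41.9, 37.4 and 38.1 at 10 µg 6 h. Cmpk2 at 24 h was at 15.99, 14.98 and 11.4 CPM with 1 µg and 9.97, 7.26 and 6.75 with 10 µg. No library of one group reached the next in the order untreated, 1 µg 24 h, 10 µg 24 h. Cmpk2 was at 0.35 ± 0.11 at 10 µg 6 h, not called, and changed by -1.12 ± 0.12 and -1.94 ± 0.13 at 24 h.

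The remaining effectors fell less or were not called. Rtp4, a chaperone of membrane receptors, was at 71.3, 85.95 and 76.8 CPM in the untreated libraries, 82.6, 77.3 and 73.2 at 1 µg 6 h and 92.9, 93.8 and 93.3 at 10 µg 6 h. Rtp4 at 24 h was at 51.9, 50.1 and 49.2 CPM with 1 µg and 40.8, 36.97 and 38.3 with 10 µg. The 10 µg libraries were above the untreated ones at 6 h and below them at 24 h. Rtp4 rose by 0.26 ± 0.06 (edgeR adjusted p = 0.00862, and 0.0849 without untreated replicate 1) and fell by 1.01 ± 0.06 (adjusted p = 2.59e-13). Bst2 (tetherin), which holds virions at the cell surface, changed by -0.23 ± 0.06 and -0.33 ± 0.06 at 24 h. Trim30a rose by 0.25 ± 0.06 at 10 µg 6 h, a call lost without untreated replicate 1 or 10 µg 6 h replicate 1 (adjusted p up to 0.0827), and fell by 0.61 ± 0.06 at 10 µg 24 h. Isg20, an exonuclease, fell by 0.84 ± 0.19 at 10 µg 24 h. Ifitm3, which blocks fusion of virus and cell membranes, and Samd9l, a translation repressor, were not called against untreated cells in any group, with 0.11 ± 0.05 and -0.14 ± 0.07 at 10 µg 24 h.

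**Figure D4:**
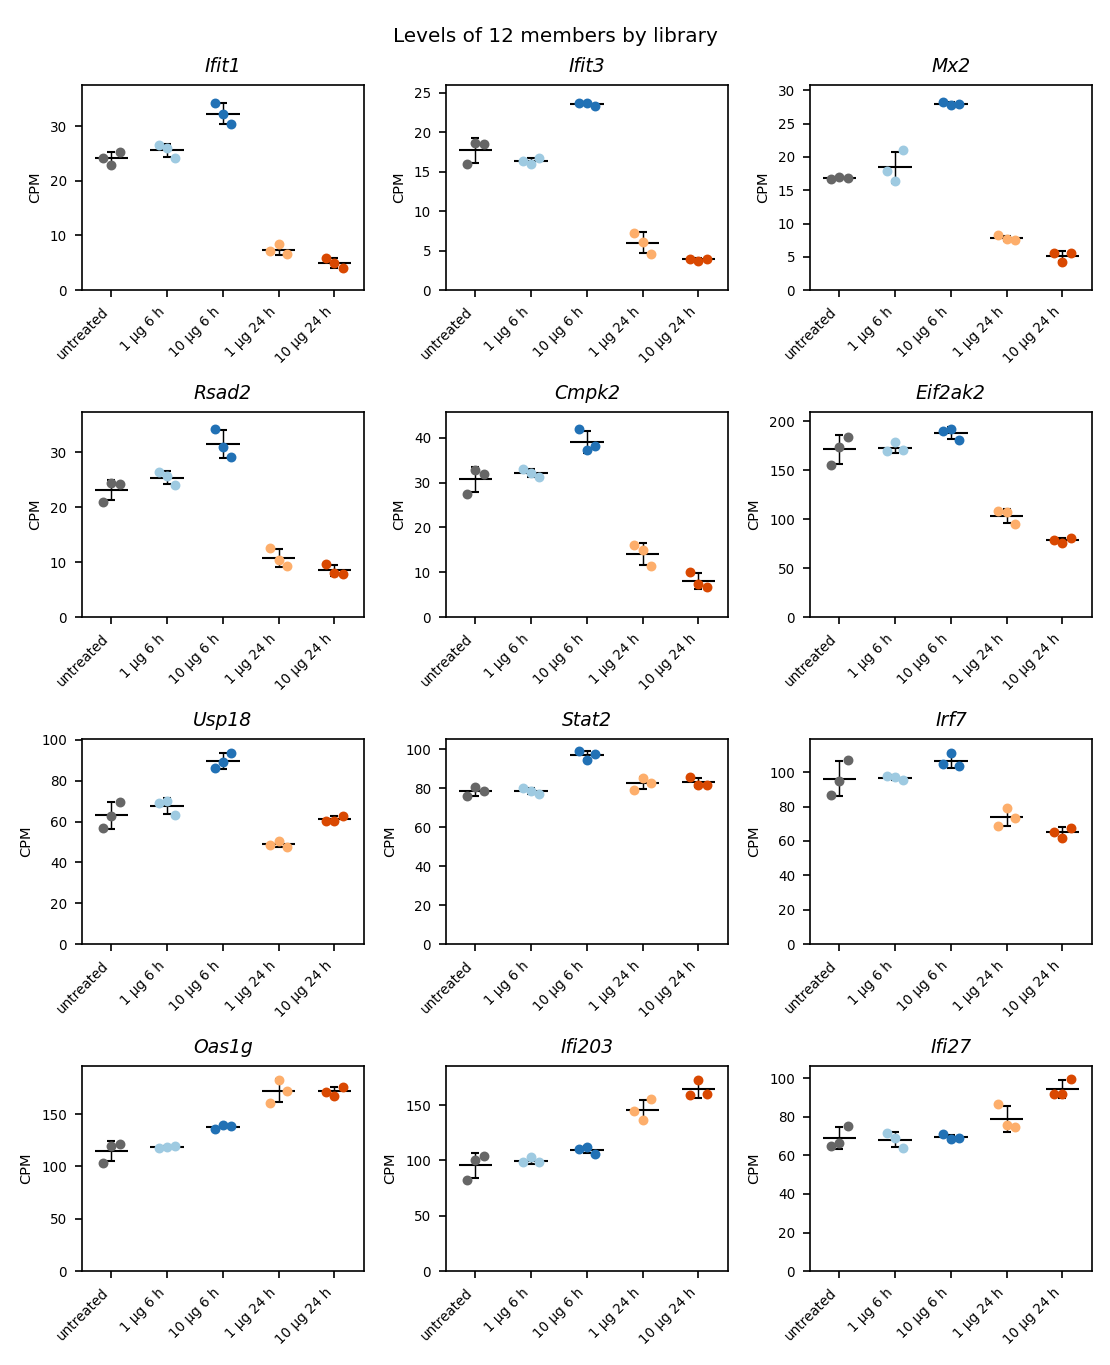
CPM of 12 members in each library, each panel on its own axis from 0, with points for libraries, a horizontal line for the group mean and bars for ± SD over 3 libraries. Ifit1, Ifit3, Mx2, Rsad2 and Cmpk2 peak at 10 µg 6 h and are lowest at 10 µg 24 h, Usp18 is lowest at 1 µg 24 h, and Oas1g, Ifi203 and Ifi27 are highest at 24 h.

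The Schlafen genes, growth regulators and restriction factors, fell less at the higher dose in 2 of 3 cases. At 24 h, 16% of all genes were called higher with 10 µg than with 1 µg. The Slfn5 call in that comparison was lost in at least 1 alternative. Slfn2 was at 221, 214 and 225 CPM in the untreated libraries, 252, 239 and 236 at 1 µg 6 h and 295, 284 and 294 at 10 µg 6 h. Slfn2 at 24 h was at 163, 170.5 and 173 CPM with 1 µg and 181, 197 and 204 with 10 µg. At 24 h the 10 µg libraries were above the 1 µg ones and both were below the untreated range. Slfn2 rose by 0.40 ± 0.05 at 10 µg 6 h and changed by -0.38 ± 0.05 at 1 µg 24 h and -0.18 ± 0.05 at 10 µg 24 h (edgeR adjusted p = 5.69e-06, 2.45e-07 and 0.00172). Slfn5 was at 104, 113 and 119.5 CPM in untreated cells, 149, 143 and 140.2 at 10 µg 6 h, 83.7, 89.3 and 91.3 at 1 µg 24 h and 96.4, 97.3 and 102 at 10 µg 24 h. These ranges were in the same order as for Slfn2. Slfn5 rose by 0.36 ± 0.05 at 10 µg 6 h, and changed by -0.35 ± 0.06 and -0.19 ± 0.05 at 24 h. Slfn8 changed by -0.28 ± 0.07 and -0.43 ± 0.08 at 24 h with 1 µg and 10 µg. The family is made of similar copies, so the split of reads between them is uncertain.

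Of 7 PARP, DTX3L and nuclear body genes, 4 rose at 10 µg 6 h and 6 fell at 10 µg 24 h, against 4.09% and 34.9% of all genes. Parp14, a mono-ADP-ribosyltransferase, was at 151, 178 and 176 CPM in the untreated libraries, 176, 178 and 169.8 at 1 µg 6 h and 211, 201 and 211 at 10 µg 6 h. Parp14 at 24 h was at 121, 118 and 114 CPM with 1 µg and 95.5, 96.3 and 97.3 with 10 µg. The 10 µg libraries were above untreated at 6 h and furthest below at 24 h. Parp14 rose by 0.30 ± 0.05 at 10 µg 6 h and changed by -0.51 ± 0.05 and -0.80 ± 0.05 at 24 h (edgeR adjusted p = 5.83e-04, 7.98e-09 and 1.08e-12). Pml, the scaffold of nuclear bodies, was at 71.97, 70.99 and 72.98 CPM in untreated cells, 72.02, 81.4 and 73.8 at 10 µg 6 h, 57.9, 56.01 and 51.7 at 1 µg 24 h and 43.9, 39.1 and 41.1 at 10 µg 24 h. It overlapped the untreated range at 6 h and was below it at 24 h, lowest at 10 µg. Pml changed by -0.38 ± 0.06 and -0.80 ± 0.06, and Daxx, a histone chaperone of these bodies, changed by -0.40 ± 0.05 and -0.61 ± 0.05. Sp100, the other scaffold protein, was not called against untreated cells in any group, with -0.13 ± 0.08 at 10 µg 24 h. Helz2, a helicase and nuclear co-activator, rose by 0.30 ± 0.07 at 10 µg 6 h, a call lost without untreated replicate 1 or 2 or 10 µg 6 h replicate 2 (adjusted p up to 0.0827), and fell by 0.50 ± 0.07 at 10 µg 24 h.

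Parp9 and Dtx3l, which encode an ADP-ribosyltransferase and its partner ubiquitin ligase, are divergent genes whose exons share 458 bases on opposite strands in GENCODE vM21. The library kit kept strand, but the labels do not say whether the counting used it. Parp9 rose by 0.22 ± 0.05 at 10 µg 6 h and changed by -0.16 ± 0.05 and -0.33 ± 0.05 at 24 h. Dtx3l rose by 0.23 ± 0.06 at 10 µg 6 h, was at 0.01 ± 0.06 at 1 µg 24 h and fell by 0.17 ± 0.06 at 10 µg 24 h. Both 6 h calls were lost without untreated replicate 1, and that of Dtx3l also without 10 µg 6 h replicate 1, with adjusted p (edgeR) up to 0.0659 and 0.0856. The Parp9 fall at 1 µg 24 h was lost without untreated replicate 2 (adjusted p = 0.0662).

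The last 6 members have mixed roles. Xaf1, a pro-apoptotic antagonist of XIAP, was at 39.4, 48.9 and 49.3 CPM in the untreated libraries, 44.7, 50.2 and 44.6 at 1 µg 6 h and 59.7, 60.5 and 56.97 at 10 µg 6 h. Xaf1 at 24 h was at 34.4, 35.02 and 31.6 CPM with 1 µg and 29.6, 25.8 and 27.05 with 10 µg. Its groups did not overlap in the order 10 µg 6 h, untreated, 1 µg 24 h and 10 µg 24 h. Xaf1 rose by 0.36 ± 0.07 at 10 µg 6 h and changed by -0.45 ± 0.08 and -0.74 ± 0.08 at 24 h. Tor3a, an ATPase of the endoplasmic reticulum, was at 239, 259 and 263 CPM in the untreated libraries, 274, 255 and 251 at 1 µg 6 h and 322, 325 and 314 at 10 µg 6 h. Tor3a at 24 h was at 195, 215 and 193 CPM with 1 µg and 248, 239 and 251 with 10 µg. As with Usp18, the 1 µg 24 h libraries were below the untreated range and the 10 µg 24 h libraries overlapped it. Tor3a rose by 0.34 ± 0.05 at 10 µg 6 h, fell by 0.34 ± 0.05 at 1 µg 24 h and was at -0.04 ± 0.05 at 10 µg 24 h. Ifi44 rose by 0.23 ± 0.05 at 10 µg 6 h, a call lost without untreated replicate 1 or 10 µg 6 h replicate 1 or 2 (edgeR adjusted p up to 0.0865), and fell by 0.51 ± 0.06 at 10 µg 24 h.

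Ifi27 joined Oas1g and Ifi203 among the genes higher at 24 h. Ifi27, a mitochondrial and nuclear membrane protein, was at 64.9, 66.7 and 75.5 CPM in the untreated libraries, 71.8, 68.9 and 64.1 at 1 µg 6 h and 70.96, 68.5 and 68.8 at 10 µg 6 h. Ifi27 at 24 h was at 86.9, 75.7 and 74.6 CPM with 1 µg and 91.9, 91.8 and 99.8 with 10 µg. The 10 µg 24 h libraries were above all others, whereas the 1 µg 24 h libraries overlapped the untreated ones. Ifi27 rose by 0.20 ± 0.06 at 1 µg 24 h and 0.45 ± 0.06 at 10 µg 24 h (edgeR adjusted p = 0.0101 and 6.26e-07). The 1 µg call was lost without untreated replicate 1 or 2 or 1 µg 24 h replicate 1, with adjusted p up to 0.103. Ifi35 changed by -0.36 ± 0.08 and -0.68 ± 0.08 at 24 h. Lgals3bp, a secreted glycoprotein, changed by -0.16 ± 0.05 and -0.16 ± 0.05, calls lost without untreated replicate 3 at 1 µg and without 10 µg 24 h replicate 2 at 10 µg (adjusted p = 0.0539 and 0.0592).

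Members called between the doses were all higher with 10 µg at 6 h and mostly lower with 10 µg at 24 h. At 6 h, 18 members were higher with 10 µg than with 1 µg and 0 were lower, where 1.85% of all genes were called higher and 0.492% lower. All 39 members with an unadjusted p under 0.05 were higher there, and DESeq2 and limma-voom also called none lower. Of all genes, 1573 had an unadjusted p under 0.05 in that 6 h comparison, a count not split by direction. At 24 h, 7 were higher with 10 µg and 29 lower, where 16% of all genes were called higher and 19.3% lower. The dose comparison at 6 h uses other libraries than that at 24 h. Of the 53 members, 11 were higher with 10 µg at 6 h and lower with 10 µg at 24 h: Ifih1, Ifi44, Ifit1, Ifit3, Mx2, Oasl2, Parp9, Parp14, Rtp4, Trim30a and Xaf1. Among these, only Ifit3 and Mx2 kept both calls under every alternative. The 4 that were higher with 10 µg at both times were Usp18, Slfn2, Slfn5 and Tor3a, of which Slfn5 lost its 24 h call in at least 1 alternative. Neither joint pattern was counted over all genes, so these numbers have no share beside them. Usp18 was higher with 10 µg by 0.41 ± 0.06 at 6 h and 0.32 ± 0.06 at 24 h (edgeR adjusted p = 2.98e-04 and 2.59e-04).

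The difference between the dose effects was tested as an interaction, 24 h minus 6 h of the log2 difference between 10 µg and 1 µg. It was negative and called in 32 of 53 members and positive in 0, where 11% of all genes were called negative and 7.58% positive. Of the 38 members with an unadjusted interaction p under 0.05, 1 was positive, and DESeq2 and limma-voom called none positive. Such an unadjusted p was found in 3703 of all genes, a count not split by sign. Mx2 was higher with 10 µg by 0.60 ± 0.09 at 6 h and differed by -0.61 ± 0.12 at 24 h, an interaction of -1.22 ± 0.15 (edgeR adjusted p = 3.73e-06). Ifit3 changed from 0.53 ± 0.10 to -0.63 ± 0.14, an interaction of -1.16 ± 0.17, and Ifit1 from 0.34 ± 0.09 to -0.57 ± 0.12, an interaction of -0.91 ± 0.15. Cmpk2 went from 0.29 ± 0.11, not called, to -0.82 ± 0.14, and Ifit3b from 0.43 ± 0.16, not called, to -0.69 ± 0.25. Stat2 had an interaction of -0.30 ± 0.07, with 0.31 ± 0.05 at 6 h and 0.01 ± 0.05 at 24 h, the latter not called. For Usp18, Slfn2, Slfn5 and Tor3a the interaction was not called, with values from -0.13 to -0.01.

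The 6 h dose count was the least stable of these. Leaving out replicate 1, 2 or 3 of the 1 µg 6 h group gave 10, 10 or 7 calls. For the 10 µg 6 h group the same gave 8, 9 or 12. Calls were lost over all genes too: 230 were higher and 61 lower with all libraries, and 115 to 163 were called with 1 left out. A fit of these 2 groups alone gave 37. The 7 members called under every alternative were Ifit3, Mx2, Slfn2, Slfn5, Stat2, Tor3a and Usp18. At 24 h the dose count of 36 ran from 26 to 35 with one library left out and was 23 with only the 2 groups fitted. Of the 36, 22 were called under every alternative. The dose calls of Ifit3b and Mx1 at 24 h were among those lost, with adjusted p (edgeR) up to 0.262 and 0.0922, and that of Ifit1 at 6 h was lost without any one of the 6 libraries compared (up to 0.219). The interaction count ran from 30 to 36, and Ifi204, Ifit3b and Oas1g lost theirs in at least 1 alternative.

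**Figure D5:**
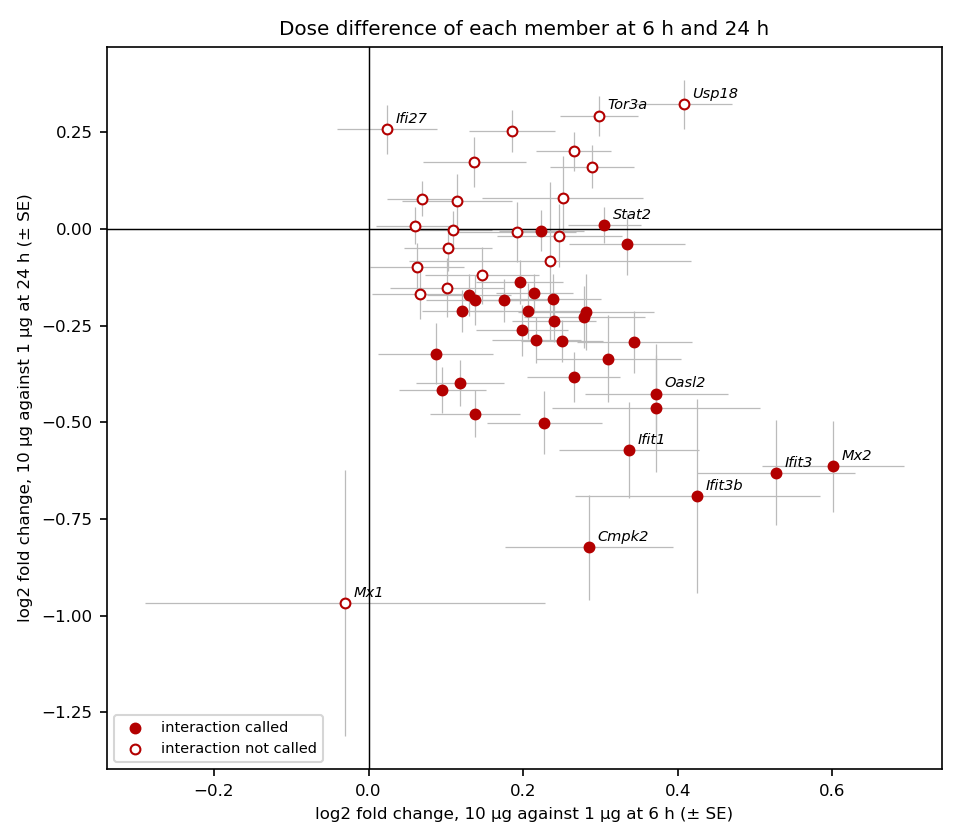
Log2 fold change of 10 µg against 1 µg at 6 h (horizontal) and at 24 h (vertical) for the 53 members, with ± SE bars. Filled points had a called interaction, and most lie right of 0 and below 0, with Mx2 and Ifit3 furthest right among them and Usp18 and Tor3a, open, above 0 at both times.

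Genes of the pathway outside the list gave the setting. The list of 81 other interferon-stimulated genes had 80 in the table and 66 tested. Of these, 12 rose and 1 fell at 10 µg 6 h (4.09% and 1.86% of all genes), and 13 rose and 33 fell at 10 µg 24 h (35.4% and 34.9%). At 1 µg 24 h, 16 rose and 25 fell (30.8% and 31%). Cxcl10, a chemokine for T cells, rose by 0.50 ± 0.12 at 10 µg 6 h and changed by -1.96 ± 0.14 at 1 µg 24 h and -2.90 ± 0.16 at 10 µg 24 h (edgeR adjusted p = 0.0105, 1.17e-11 and 1.87e-14). Irgm1, an immunity-related GTPase, rose by 0.33 ± 0.06 at 10 µg 6 h and fell by 1.10 ± 0.06 at 10 µg 24 h, and Slfn9 fell by 1.86 ± 0.08 at 10 µg 24 h. Without 10 µg 6 h replicate 2 the Cxcl10 rise was not called (adjusted p = 0.0580). The median change over the 66 was 0.08 at 10 µg 6 h and -0.20 at 10 µg 24 h.

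Among 19 tested genes that lead to interferon production, 2 rose and 0 fell at 10 µg 6 h (4.09% and 1.86% of all genes), and 7 rose and 9 fell at 10 µg 24 h (35.4% and 34.9%). Cgas, the cytosolic DNA sensor, was at 129, 128 and 129.6 CPM in untreated cells, 87.8, 73.6 and 68.7 at 1 µg 24 h and 51.1, 50.6 and 47.98 at 10 µg 24 h. These 3 ranges fell in that order with no overlap, and Cgas changed by -0.75 ± 0.06 and -1.37 ± 0.07 (edgeR adjusted p = 2.93e-10 and 2.99e-15). Irf3, the factor that starts Ifnb1 transcription, changed by -0.15 ± 0.05 and -0.30 ± 0.05 at 24 h, and the 1 µg call was lost when untreated replicate 1 was left out (edgeR adjusted p = 0.0558). Cd14, a co-receptor for bacterial lipopolysaccharide, fell by 0.90 ± 0.06 at 10 µg 24 h, and Traf3, an adaptor of interferon induction, fell by 0.55 ± 0.05. Of 6 other tested genes for IRFs and IRF2-binding proteins, Irf5 fell by 0.93 ± 0.05 and Irf8, a factor of the myeloid lineage, rose by 0.73 ± 0.06 at 10 µg 24 h. Among 8 tested negative regulators of JAK-STAT signalling, 0 rose and 5 fell at 10 µg 24 h (35.4% and 34.9% of all genes), including Ptpn11 and Ptpn6, phosphatases that act on this pathway (-0.48 ± 0.04 and -0.37 ± 0.06). Socs3, an inhibitor induced by STAT3, fell by 0.44 ± 0.17 at 10 µg 24 h, a call lost without untreated replicate 1 or 10 µg 24 h replicate 1 or 2 (edgeR adjusted p up to 0.181).

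Of 12 macrophage markers, 11 were tested, and Mertk was left out with 0 to 3 counts per library. Their summed level, most of it Lyz2, was 15215 to 15756 CPM in untreated libraries, 13874 to 16376 at 1 µg 24 h and 11494 to 12592 at 10 µg 24 h. At 10 µg 24 h, 5 of the 11 rose and 5 fell (35.4% and 34.9% of all genes). Those that rose were Fcgr1, Itgam and Ptprc, and also Adgre1 and Cd68, which are named after their values were seen. The summed level of 9 neutrophil markers was 3.74 to 5.46 CPM in untreated libraries, 20.7 to 27.0 at 1 µg 24 h and 31.8 to 36.8 at 10 µg 24 h, with Ly6g, Retnlg and S100a9 at 0 counts in all groups. Csf3r, a cytokine receptor, made most of this sum, at 3.22 to 4.47, 20.3 to 26.4 and 31.1 to 36.4 CPM. S100a8, the other one tested, fell by 1.30 ± 0.55 at 10 µg 24 h, a call lost by DESeq2's Wald test, by limma-voom and without replicate 1 of either group, untreated replicate 3 or 10 µg 24 h replicate 2 (adjusted p up to 0.180). For 5 B cell markers it was 0.88 to 1.69, 9.85 to 13.3 and 4.09 to 4.61 CPM in the same groups, with Cd79b and Ms4a1 at 0. Ighm made most of it, at 0.73 to 1.39, 9.19 to 12.5 and 3.48 to 3.88 CPM, and Cd79a was at 0.15 to 0.82 CPM over all libraries. For 9 T and NK cell markers it was 3.66 to 4.38, 7.14 to 7.73 and 8.14 to 9.76 CPM, nearly all of it Lck, with Cd3e, Cd3g, Cd8a, Klrb1c and Ncr1 at 0. For 12 dendritic cell markers, Bst2 among them and Ccr9 making most of the sum, it was 757 to 810.0, 721 to 802 and 654 to 709 CPM, with Ccr7 and Ly6d at 0. Against this sum, Itgax of the same list was higher at 24 h, at 14.5 to 16.4, 22.3 to 24.6 and 40.2 to 44.9 CPM. Tcf4 was at 84.2 to 90.9, 83.1 to 90.9 and 67.8 to 81.1 CPM. Fibroblast and epithelial markers were at or below 0.10 CPM. The part of these differences in the falls of the members at 24 h was not tested.

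In the promoter windows, the ISRE core was counted by what each member did. It was in 9 of 19 members with a window that rose at 10 µg 6 h (47.4%) and in 9 of 22 that were not called (40.9%). At 10 µg 24 h it was in 13 of 32 that fell (40.6%) and in 3 of 3 that rose. These are counts of letters in the 41 members with a RefSeq window and carry no test.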

How the data were processed

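RNA was measured in 15 libraries of RAW264.7 cells made with a stranded mRNA kit, per the labels' protocols. The deposited values are raw read counts per gene symbol, which the authors made on the genome build GRCm39 per the submitters' processing notes; the aligner, counter, annotation and use of strand are unstated in the labels. Groups and replicate numbers came from the sample titles, every count column matched 1 sample (0 unmatched), and no libraries of a group agreed within sampling noise (chi-square per degree of freedom 2.55 to 15.3). All libraries carry 1 batch label, so a batch could not be tested.

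Genes were filtered with edgeR's filterByExpr, which left 12401 of 25639 symbols. CPM used TMM factors. The main test was edgeR 4.0.16's quasi-likelihood test (R 4.3.3) with 1 coefficient per group, 10 residual degrees of freedom and Benjamini-Hochberg adjustment over all genes tested, at an adjusted p under 0.05. The common biological coefficient of variation was 5.68%. Alternatives were DESeq2 1.42.0 (its size factors, and its Wald test), limma 3.58.1 with voom, no filter on low counts, a fit of the compared groups alone, a replicate block, and leaving out each library.

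The members and gene lists were chosen with earlier results of these data known, so their counts are descriptions beside those over all genes. Any member may be named. Values in every library are given for up to 3 members of each role with the smallest p over all groups and up to 5 with the largest called dose, time or interaction changes. Of each other list, up to 4 genes with the smallest p are named, and Ifnb1, Ifnar1, Ifnar2 and Irf3 whatever they show. Some genes of these lists are not reported here and were left out of the list counts. Promoters came from RefSeq (GRCm38.p6) and exon overlaps from GENCODE vM21. Depth of 19085148 to 22434642 counts sets the precision, and 3 counts in a library are 0.130 to 0.160 CPM after TMM.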

Additional observations from a re-analysis of the deposited data

Results flagged for a closer look

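The effect of dose differed between 6 h and 24 h in 32 of the 53 members, by the interaction test of edgeR at an adjusted p under 0.05. In each of the 32 the difference of 10 µg from 1 µg was lower on the log2 scale at 24 h than at 6 h. The values most below 0 were those of Mx2 (-1.22), Ifit3 (-1.16), Ifit3b (-1.12), Cmpk2 (-1.11) and Ifit1 (-0.91). The Ifit3b value lost its call without 1 µg 24 h replicate 1 (adjusted p = 0.0559).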

How the results depend on the processing

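At 24 h against untreated, between times and for the interaction, each count of members called kept within 1.5 times its value under every alternative run. The 10 µg 6 h count of 27 ran from 12 to 29 with 1 library left out (12 with untreated replicate 1 left out, and 17 with 10 µg 6 h replicate 2 left out), and the 6 h dose count of 18 from 7 to 12 (12 without 10 µg 6 h replicate 3, the others 7 to 10). With only the compared groups fitted, the dose counts were 37 at 6 h and 23 at 24 h, and the cause was not tested. The main fit shared its estimate of the spread over all 5 groups. Pairs of libraries within the 6 h groups had a chi-square per degree of freedom of 2.55 to 3.59. In the 24 h groups it was 4.59 to 15.3. Over all genes, with 1 library left out, 394 to 466 were called at 10 µg 6 h and 115 to 163 for dose at 6 h. Over single members, 201 of 3756 refitted values of called members missed the threshold and 0 reversed. Among the other named genes, 89 of 2028 did and 0 reversed. For same-numbered replicates, correlations of deviations were -0.081 to 0.096, with 0 of 30 over 0.1, and 15 of 30 were highest with their own number. These values cannot show whether same-numbered libraries were paired. With the replicate block, 26 members were called at 10 µg 6 h, 15 and 34 for dose at 6 h and 24 h, and 33 for the interaction. Genes of few counts, such as Mx1 with 7 to 40 per library, are the least precise.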
